A study of Mus musculus with 9 samples.

Results

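Bone morphogenetic protein (BMP) signalling was examined through 10 genes: the ligands Bmp4 and Inhba, the protease Bmp1, the receptor Bmpr1a, the antagonists Grem1 and Fst, and the target genes Id1, Id2, Id3 and Id4. The genes were chosen by name, with earlier results of these data known, so the counts below describe these genes and are not an independent test. A probe set counted if the platform annotation gave it exactly 1 gene symbol, and all 10 were found, each with 1 probe set, among 19938 genes measured. RNA had been hybridised to whole-transcript arrays from 3 kinds of mouse cells, with 3 arrays of each. Embryonic fibroblasts (MEF) were cultured to a passage below 3 and were the source of the reprogrammed cells. Induced pluripotent stem cells (iPS) were derived from such fibroblasts, and the third group was the embryonic stem cell line R1. The labels call them inducible, but the strain, the reprogramming factors and any agent are not given in the labels. R1 is a single line, and the sources used here do not state whether the iPS arrays came from 1 clone or whether feeder cells were present. The submitters call the 3 arrays of each group biological repeats. Separate derivations are not stated, and the p-values below therefore reflect variation among these arrays, some of which may be technical.

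BMPs are secreted dimers of the TGF-beta superfamily that bind pairs of type I and type II serine/threonine kinase receptors. The type I receptors phosphorylate Smad1, Smad5 and Smad9, which enter the nucleus with Smad4 and switch on targets, the Id genes being the classical ones. Id proteins are helix-loop-helix factors without a DNA-binding region, and they hold E proteins in complexes that cannot bind DNA. In mouse embryonic stem cells, BMP4 and the Id genes it induces are known to support self-renewal together with LIF. Activins signal through a parallel branch with Smad2 and Smad3, and follistatin traps them.

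Promoter sequences, 250 bases before to 50 bases after the transcription start, were available from RefSeq for 7 of the genes (GRCm38.p6), while Id1, Fst and Bmp1 were not matched. The windows of Id2, Id3 and Id4 are shown because the Id genes are the BMP targets among the 10 genes and differed among themselves in the results below. Id2 lies at chr12:25096043-25096342 on the minus strand, Id3 at chr4:136143572-136143871 on the plus strand and Id4 at chr13:48260866-48261165 on the plus strand. Capitals mark matches, on either strand, to GGCGCC or GCCGNCGC, GC-rich elements that BMP Smads can bind, and the first 250 bases of each window precede the start.
Id2: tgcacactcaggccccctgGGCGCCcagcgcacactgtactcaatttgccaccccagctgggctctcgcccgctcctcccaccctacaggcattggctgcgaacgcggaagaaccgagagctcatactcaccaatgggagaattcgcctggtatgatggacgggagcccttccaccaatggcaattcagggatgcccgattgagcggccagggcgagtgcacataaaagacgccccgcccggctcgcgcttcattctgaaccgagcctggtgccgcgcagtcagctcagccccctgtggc
Id3: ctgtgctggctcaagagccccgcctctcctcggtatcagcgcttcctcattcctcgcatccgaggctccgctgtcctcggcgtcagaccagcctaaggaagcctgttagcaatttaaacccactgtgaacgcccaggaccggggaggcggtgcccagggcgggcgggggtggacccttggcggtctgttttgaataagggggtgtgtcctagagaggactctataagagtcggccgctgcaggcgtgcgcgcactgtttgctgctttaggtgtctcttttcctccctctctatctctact
Id4: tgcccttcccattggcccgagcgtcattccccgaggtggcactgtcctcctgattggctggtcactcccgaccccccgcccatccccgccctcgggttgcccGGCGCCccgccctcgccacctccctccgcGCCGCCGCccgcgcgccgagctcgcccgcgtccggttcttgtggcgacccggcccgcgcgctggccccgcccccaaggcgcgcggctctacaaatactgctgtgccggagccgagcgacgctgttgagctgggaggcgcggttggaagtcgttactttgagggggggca

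GGCGCC occurred in 4 of the 7 windows (Grem1, Id2, Id4 and Bmpr1a), against 11.9% of all 32851 promoter windows of the same length. GCCGNCGC occurred in 3 (Grem1, Id4 and Bmpr1a), against 9.76% of all. Bmpr1a is the GC-richest of the 7 at 79.3% and Inhba the poorest at 47.7%, and the median of all windows was 52.7%. The part of base composition in these matches was not tested. The Smad boxes CAGACA (21.04% of all windows) and GTCTAGAC (0.213%) had no match in the 7. The E-box CANNTG, the word read by the E proteins that Id proteins bind, occurred once in Id2 and 3 times in Bmp4, against 72.3% of all windows holding at least 1. These matches describe the letters of the windows and are not shown to be sites.

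The cell labels were checked against marker genes. The summed signal of 10 pluripotent cell markers was 453 to 600.4 in MEF, 39287 to 41147 in R1 and 32156 to 35159 in iPS arrays. All 10 were called higher in both stem cell types than in MEF. Zfp42 had the widest gap of that list between R1 and iPS arrays, at 3539 and 506, while Nanog had the higher mean in iPS arrays (3205 and 3530). The summed signal of 11 fibroblast markers was 34237 to 39578 in MEF, 2507 to 3492 in R1 and 3504 to 4304 in iPS arrays. Of 10 skeletal muscle markers the sum was 6782 to 8235 in MEF and 890.0 to 1127 in the stem cells. Actc1 had the highest mean of that list in MEF, at 4881, against 223 in R1 and 290 in iPS arrays. Myf5 (21.8, 17.9 and 19.7) and Myf6 (47.4, 47.4 and 51.1) were dim in all groups. Of the muscle list, 7 genes were called lower in iPS and 8 in R1 cells, and none higher. Macrophage markers summed to 335 to 372 in MEF, 529 to 555 in R1 and 476 to 504 in iPS arrays, and endothelial markers to 422 to 495, 685 to 767 and 604 to 702, with 1 gene of each list called higher in both stem cell types and 1 endothelial gene called lower. Keratinocyte markers summed to 329 to 385, and no marker was at 0, since array signals do not reach 0. Primitive endoderm markers, which include the fibroblast gene Pdgfra, summed to 2609 to 2766 in MEF, 1225 to 1321 in R1 and 945 to 1124 in iPS arrays. Dab2 and Pdgfra had the highest means of that list in MEF. Dab2 was at 1109 in MEF, 195 in R1 and 125 in iPS arrays, and Pdgfra at 884, 148 and 119. Lama1 went the other way (82.6, 409 and 325). Of the list, 3 genes were called lower and 1 higher in iPS cells, and 2 lower and 1 higher in R1 cells. Neural progenitor markers summed to 1941 to 2269, 948 to 962 and 1070.0 to 1097 in MEF, R1 and iPS arrays. Nes had the highest mean of that list in MEF, at 1428, against 197 in R1 and 267 in iPS arrays. Sox1, Pax6, Olig2 and Tubb3 had higher means in both stem cell types than in MEF, and Dcx lower ones. In the neural list 1 gene was called lower in each stem cell type and 1 higher in iPS cells. Mesoderm markers summed to 543 to 603, 699 to 739 and 726 to 1120.0, and trophoblast markers to 523 to 653, 854 to 879 and 1135 to 1420, in the same order. The highest iPS mesoderm sum was that of replicate 1, against 784 and 726 in the others. Eomes, counted in both lists, was at 39.6 in MEF, 142 in R1 and 268 ± 121 (SD) in iPS arrays. Tfap2c of the trophoblast list was at 56.3, 313 and 514, while Krt7 went the other way (233, 111 and 143). In each stem cell type 1 mesoderm and 2 trophoblast genes were called higher and none lower. Array medians lay between 78.2 and 83.3.

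A gene is said to have risen or fallen if the adjusted p of limma was under 0.05 and the absolute log2 difference of (signal + 16) was 1 or more. Of the 10 genes, 6 fell in iPS cells against MEF (Inhba, Bmp1, Fst, Id1, Id2 and Id3) and none rose, while 7.58% of all genes fell and 5.08% rose. In R1 cells against MEF, 6 fell (Inhba, Bmp1, Grem1, Fst, Id2 and Id3) and none rose, while 7.94% of all genes fell and 5.56% rose. Both comparisons share the MEF arrays. Inhba, Bmp1, Fst, Id2 and Id3, 5 genes, fell in both, and Bmp4, Bmpr1a and Id4 were called in neither. The median log2 difference of the 10 genes was -1.23 in iPS and -1.55 in R1 cells, beside 0.02 for all genes in either comparison. All arrays of the stem cells lay below all MEF arrays for 9 of the 10 genes in each comparison, against 24.9% of all genes for iPS and 25.3% for R1. By adjusted p alone 9 of 10 were lower in each, against 23.2% and 23.0% of all genes. Bmp4 was the exception throughout.

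**Figure D1:**
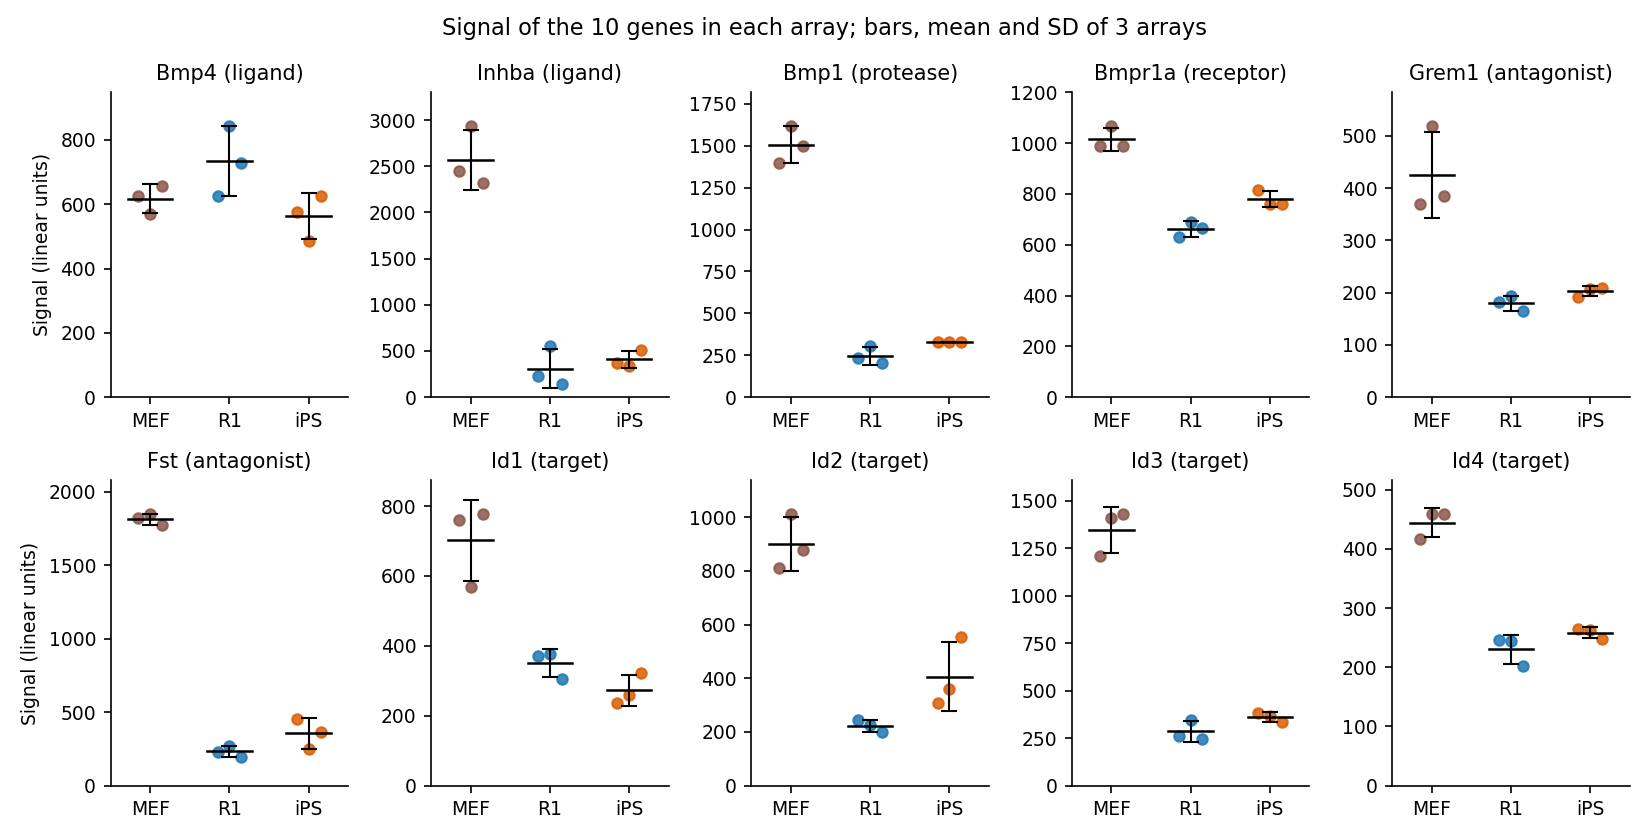
Signal on a linear scale (vertical axis) of each of the 10 genes in every array of MEF, R1 and iPS cells, with the mean and SD of 3 arrays as bars. Bmp4 overlaps between the groups, while the 9 other genes have all R1 and iPS arrays below all MEF arrays.

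Bmp4, the ligand that acts on Bmpr1a, did not pass the p threshold in either comparison with MEF. Its signal was 626, 568 and 657 in the MEF arrays, 626, 843 and 729 in the R1 arrays and 576, 484 and 626 in the iPS arrays. The 3 groups overlapped, with R1 highest by mean. The log2 difference was -0.14 ± 0.12 (SE) in iPS against MEF (95% interval -0.40 to 0.13, adjusted p = 0.411) and 0.23 ± 0.12 in R1 against MEF (-0.03 to 0.50, adjusted p = 0.142). Both intervals lie inside a difference of 1 in either direction, the minimum for a call.

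Inhba encodes the activin A subunit, a ligand of the Smad2 and Smad3 branch, and had the largest difference of the 10 genes in both comparisons with MEF. Its signal was 2452, 2937 and 2320.1 in MEF, 231, 549 and 147 in R1 and 367, 343 and 516 in iPS arrays. All stem cell arrays lay below all MEF arrays, and the R1 arrays were more spread than those of any of the other 9 genes in any group, with an SD of 0.91 on the log2 scale. It fell by 2.62 ± 0.37 in iPS (adjusted p = 0.000204) and fell by 3.18 ± 0.37 in R1 cells (adjusted p = 4.94e-05).

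Bmp1, despite its name, encodes a metalloprotease of the astacin family that cleaves procollagens and the BMP antagonist chordin. Its signal was 1399, 1618 and 1499 in MEF, 232, 304 and 202 in R1, and 331, 326 and 329 in iPS arrays. The groups did not overlap, and the iPS arrays had an SD of 2.28 signal units. It fell by 2.14 ± 0.12 in iPS (adjusted p = 2.89e-07) and fell by 2.55 ± 0.12 in R1 cells (adjusted p = 7.96e-08).

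Bmpr1a, the type I receptor for BMP2 and BMP4, differed by less. Its signal was 989, 1067 and 989 in MEF, 630.3, 690 and 666 in R1, and 815, 760.1 and 760.1 in iPS arrays, without overlap of any pair of groups. The log2 difference was -0.38 ± 0.05 in iPS (adjusted p = 0.000224) and -0.60 ± 0.05 in R1 cells (adjusted p = 7.25e-06). These values passed the p threshold but not the minimum difference, so the gene was not called.

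The 2 antagonists bind ligands outside the cell, gremlin (Grem1) mainly BMPs and follistatin (Fst) mainly activins. Grem1 was at 369.6, 519 and 385 in MEF, 182, 193 and 164 in R1, and 191, 207 and 209 in iPS arrays. It fell by 1.16 ± 0.11 in R1 cells (adjusted p = 1.47e-05). In iPS cells the difference was -0.998 ± 0.11 (adjusted p = 4.54e-05), just short of the minimum of 1, and the call turned with single arrays: it was made without MEF replicate 1 (-1.09), MEF replicate 3 (-1.06), iPS replicate 2 (-1.01) or iPS replicate 3 (-1.02).
Fst was at 1820.3, 1846 and 1771 in MEF, 232, 271 and 197 in R1, and 455, 247 and 367 in iPS arrays. The MEF arrays were close to each other and far above the rest. Fst fell by 2.34 ± 0.19 in iPS (adjusted p = 3.14e-06) and fell by 2.89 ± 0.19 in R1 cells (adjusted p = 6.48e-07).

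Of the 4 Id genes, Id2 and Id3 fell in both stem cell types, Id1 fell in iPS cells, and Id4 was not called. Id1 was at 760.1, 568 and 776 in MEF, 369.6, 377 and 304 in R1, and 236, 259.6 and 322 in iPS arrays. The iPS arrays were the lowest by mean, and Id1 was, with Bmp4, 1 of 2 genes with a lower mean in iPS than in R1 cells. Id1 fell by 1.31 ± 0.14 in iPS cells (adjusted p = 3.21e-05). In R1 cells the difference was -0.96 ± 0.14 (adjusted p = 0.000278), and among the alternatives run the gene was called there only without MEF replicate 2 (-1.10), R1 replicate 1 (-1.001) or R1 replicate 2 (-1.02).

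Id2 was at 809, 1009.9 and 879 in MEF, 244, 226 and 199 in R1, and 307, 359.5 and 553 in iPS arrays. The 3 groups did not overlap, with iPS cells between the other two and 1 iPS array well above the others. Id2 fell by 1.15 ± 0.18 in iPS (adjusted p = 0.000431) and fell by 1.94 ± 0.18 in R1 cells (adjusted p = 1.05e-05), and its iPS call was lost without iPS replicate 1 (-0.98).

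Id3 was at 1209, 1409 and 1428 in MEF, 263, 347 and 247 in R1, and 383, 367 and 333 in iPS arrays. It had the largest differences of the family, -1.85 ± 0.12 in iPS (adjusted p = 7.03e-07) and -2.19 ± 0.12 in R1 cells (adjusted p = 2.01e-07). Id4 was at 416, 458 and 458 in MEF, 246, 244 and 202 in R1, and 265, 263 and 247 in iPS arrays. All stem cell arrays were below the MEF arrays, but the differences of -0.74 ± 0.08 (adjusted p = 1.92e-05) and -0.90 ± 0.08 (adjusted p = 4.43e-06) did not reach the minimum.

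**Figure D2:**
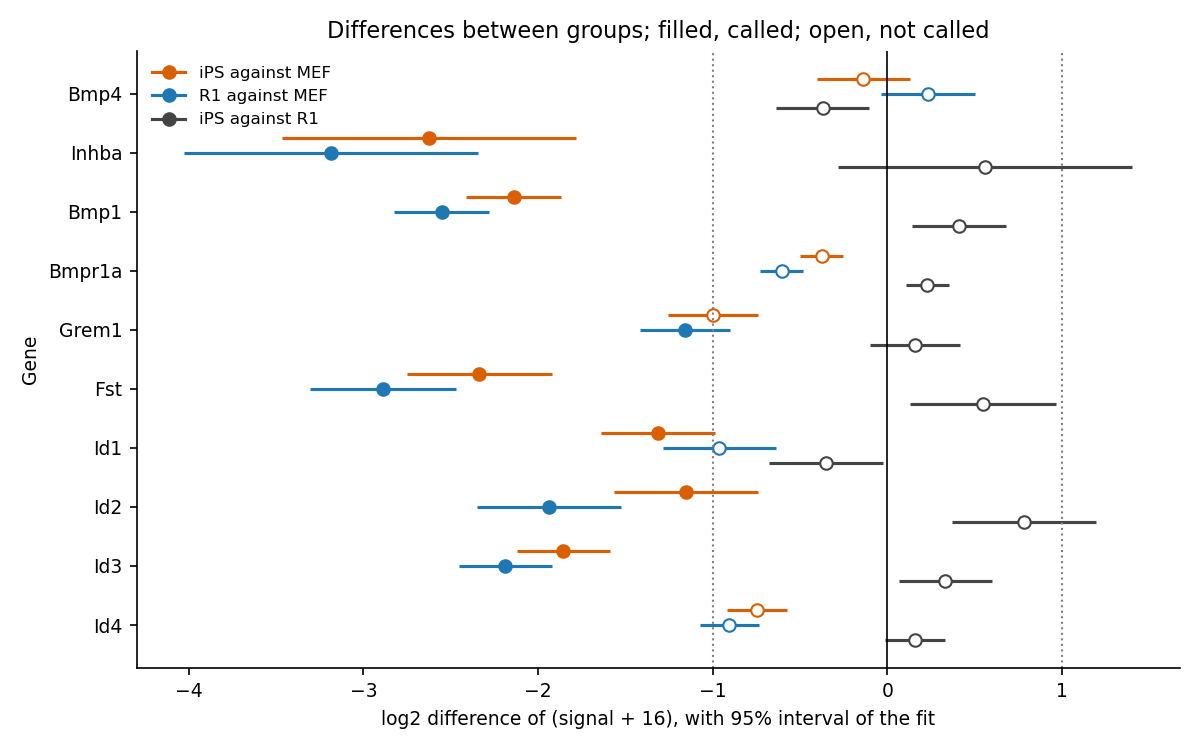
log2 difference of (signal + 16) with its 95% interval (horizontal axis) for the 10 genes in 3 comparisons. Filled points were called, open points were not, and dotted lines mark a difference of 1. Inhba, Fst and Bmp1 lie farthest from 0 against MEF, and no iPS against R1 point is filled.

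The comparison of iPS with R1 cells is also the test of whether the differences from MEF were unequal. In limma none of the 10 genes was called, against 0.461% of all genes. By adjusted p alone 2 passed, against 8.52% of all genes, and at an unadjusted p under 0.05 there were 7, against 20.6%. Id2 was higher in iPS cells by 0.78 ± 0.18 (95% interval 0.37 to 1.19, adjusted p = 0.0307), and Bmpr1a by 0.23 ± 0.05 (0.11 to 0.35, adjusted p = 0.0329). Over 19 alternatives the adjusted p ranged from 0.0138 to 0.103 for Id2, under 0.05 in 11, and from 0.0243 to 0.117 for Bmpr1a, under 0.05 in 8. The arrays of both lines were separated for 4 genes (Bmp1, Bmpr1a, Id2 and Id4, each higher in iPS), against 21.9% of all genes separated in either direction.

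The remaining differences of iPS from R1 cells did not pass the adjusted threshold in the model with all arrays. They were -0.37 (95% interval -0.64 to -0.10) for Bmp4, -0.35 (-0.68 to -0.03) for Id1, 0.41 (0.14 to 0.68) for Bmp1, 0.55 (0.13 to 0.97) for Fst, 0.33 (0.07 to 0.60) for Id3, 0.16 (-0.10 to 0.42) for Grem1 and 0.16 (-0.01 to 0.33) for Id4. For Inhba it was 0.56 (-0.28 to 1.403). Without R1 replicate 2, whose Inhba signal of 549 stood above the 2 others, the Inhba difference was 1.06 and was called. The split by adjusted p also moved with the setting for other genes. Bmp1 passed under quantile normalization, with dim genes left out and without R1 replicate 2 (lowest adjusted p = 0.0040 in limma), Id3 without R1 replicate 2 (0.0164) and Fst without iPS replicate 2 (0.0117).

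Fibroblast marker means were also compared between the stem cell types, without a test. Of the 11, 10 had a higher mean in iPS than in R1 cells, as had 8 of the 10 genes, while the marker Pdgfra and the genes Bmp4 and Id1 were lower. The share of all genes with a higher mean in iPS cells was not computed. The median log2 difference of all genes was -0.006 in iPS against R1. The marker sum was higher in every iPS than in every R1 array, but the lowest iPS sum (3504) was close to the highest R1 sum. Among R1 arrays the sum was highest in replicate 2 (3492, against 2507 and 2519). Col1a1 (785 in R1 and 1229 in iPS arrays) and Col1a2 (577 and 839) had the highest means of the list in both. Replicate 2 was also the highest R1 array for 8 of the 10 genes, against 31.9% of all genes. The part of fibroblast RNA in the differences between iPS and R1 cells was not tested. In bulk RNA, fewer cells of a type and less RNA per cell cannot be told apart.

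Set against the MEF mean, the R1 mean was 12.02% for Inhba, 12.9% for Fst, 16.4% for Bmp1, 21.2% for Id3, 24.8% for Id2, 42.3% for Grem1, 49.97% for Id1, 51.9% for Id4, 65.2% for Bmpr1a and 119% for Bmp4. For iPS cells the corresponding shares ran from 15.9% for Inhba to 91.1% for Bmp4. The 11 fibroblast markers had a median share of 7.74% in R1 (3.57% to 53.5%) and 11.4% in iPS cells (3.73% to 55.9%). These signals may include background, since no detection calls were used. The highest of the marker shares was that of Lum, a proteoglycan gene at 97.9 in MEF. The part of fibroblast RNA left in the stem cell cultures in these shares was not tested.

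**Figure D3:**
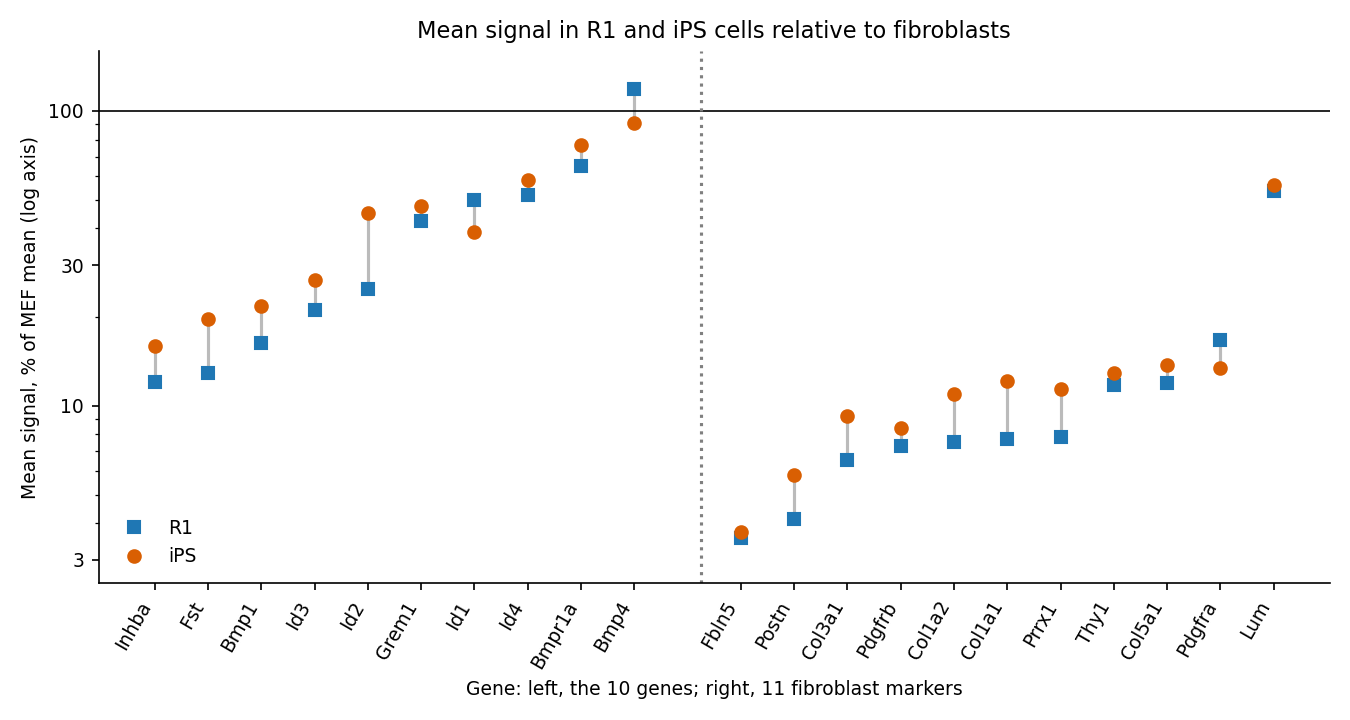
Mean signal in R1 (squares) and iPS cells (circles) as a percentage of the MEF mean, on a log axis, for the 10 genes on the left and 11 fibroblast markers on the right. Bmp4 lies near 100%, Inhba, Fst and Bmp1 between 12.02% and 21.8%, and the median fibroblast marker at 7.74% in R1 and 11.4% in iPS cells.

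The other genes of the pathway were read from 8 lists of 104 genes, of which 99 were measured. In iPS against MEF, 27 fell (27.3%) and 6 rose (6.06%), while 7.58% of all genes fell and 5.08% rose. In R1 against MEF, 27 fell (27.3%) and 4 rose (4.04%), while 7.94% of all genes fell and 5.56% rose. The shares that rose were near those of all genes, and the counts in the short lists below are to be read beside the same shares. Among 18 other ligands, Gdf3, a ligand found in pluripotent cells, rose from 56.5 ± 4.51 in MEF to 1361 ± 58.4 in R1 and 1627 ± 159 in iPS arrays (SD, n = 3), with log2 differences of 4.25 ± 0.08 (SE) and 4.50 ± 0.08. Bmp5 and Gdf11 fell in both, Gdf11 at -1.02 in iPS cells, a call lost without MEF replicate 1 or 3. Bmp2 (-0.40 in iPS, -0.47 in R1) and Bmp7 (0.40 and 0.37) were not called. None of the 4 other activin and inhibin subunits was called by limma in either comparison. Inha passed the p threshold alone in both, with differences of -0.68 in iPS and -0.63 in R1 cells. Inhbb went the other way, at 0.27 in iPS and 0.41 in R1 cells, and passed that threshold in R1 cells only. Median differences over these 2 lists lay between -0.05 and 0.04.

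Of 13 other receptors and co-receptors, 3 fell and 1 rose in each comparison. The type II receptor Bmpr2 fell from 1191 ± 188 in MEF to 389 ± 22.0 in R1 and 372 ± 13.8 in iPS arrays. The type I receptor Acvr1 fell, with differences of -1.75 ± 0.11 in iPS and -1.79 ± 0.11 in R1 cells, and Bmpr1b fell (-1.09 and -1.13) from 84.9 in MEF. Acvr2b, a type II receptor of activins and BMPs, rose by 1.18 in both. Of 15 Smads and regulators, 6 fell and 1 rose in each comparison. Of the BMP effectors, Smad1 and Smad5 fell in both, Smad1 by differences of -1.07 ± 0.07 in iPS and -1.16 ± 0.07 in R1 cells and Smad5 by -1.18 ± 0.05 and -1.02 ± 0.05, the R1 call of Smad5 being lost without MEF replicate 2 or R1 replicate 3. Smad9, the other BMP effector, had a mean of 109.7 in MEF and was not called (-0.40 in iPS and -0.32 in R1 cells). Of the activin effectors, Smad3 fell (-1.38 and -1.74) and Smad2 was not called (-0.21 and -0.16). The ubiquitin ligase Smurf1 fell (-1.27 and -1.203).

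Smad6, itself a BMP target, fell by 1.01 ± 0.09 in iPS cells, a call lost without MEF replicate 2 or 3 or iPS replicate 2 or 3, with a difference of -1.16 ± 0.09 in R1 cells. Smad7, the other inhibitory Smad, had differences of 0.04 ± 0.07 and 0.16 ± 0.07 and was not called. The shared Smad4 had differences of -0.23 and -0.19. Zfp423, a zinc-finger partner of BMP Smads, rose by 1.04 in iPS, a call lost without MEF replicate 2, and by 1.36 in R1 cells.

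Of 19 other secreted antagonists and modulators, 6 fell and none rose in each comparison. Crim1, a membrane-anchored BMP-binding protein, fell from 2599 ± 73.4 in MEF to 198 ± 37.2 in R1 and 271 ± 4.74 in iPS arrays. Bmper fell, with differences of -2.19 ± 0.14 in iPS and -2.48 ± 0.14 in R1 cells, and so did Fstl1, a follistatin-like glycoprotein (-2.15 ± 0.14 and -2.51 ± 0.14). Fstl3, which binds activins as follistatin does, fell as well (-1.39 and -1.58). Noggin (Nog) had differences of -0.60 and -0.57 and chordin (Chrd) of 0.003 and 0.01, neither called. Htra1, a secreted serine protease, fell in both and differed between the stem cells by 0.99 ± 0.14 (adjusted p = 0.00271), just under the minimum for a call. Of the 4 genes of the Bmp1 protease group, the tolloid-like protease Tll1 fell from 1122 ± 60.9 in MEF to 69.8 ± 29.1 in R1 and 90.9 ± 7.64 in iPS arrays, and Pcolce, which enhances procollagen cleavage by Bmp1, fell too (-2.13 in iPS and -1.64 in R1 cells). Tll2 and Pcolce2 were not called.

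Of 12 other BMP target genes, 2 fell and 1 rose in each comparison, beside 5.08% and 5.56% of all genes that rose and 7.58% and 7.94% that fell. Atoh8 fell, with differences of -1.29 ± 0.12 in iPS and -1.27 ± 0.12 in R1 cells, and so did Gata3 (-1.15 ± 0.05 and -1.64 ± 0.05). Tbx3, a T-box factor of the pluripotency network, rose from 251 ± 15.4 in MEF to 841 ± 153 in R1 and 666 ± 133 in iPS arrays. Dusp9, a MAP kinase phosphatase, had differences of 0.51 and 0.42 and was not called.

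Of 14 E proteins and other basic helix-loop-helix factors, the class that Id proteins bind or counter, 6 fell in each comparison and 2 rose in iPS cells. Among the E proteins, Tcf12 fell from 1024 ± 32.7 in MEF to 287 ± 8.97 in R1 and 442 ± 25.8 in iPS arrays, and Tcf4 fell by 1.01 in iPS, a call lost without MEF replicate 2 or 3 or iPS replicate 3, and fell by 1.23 in R1 cells. Tcf3 (E2A) was at 753 ± 26.4 in MEF, 678 ± 33.5 in R1 and 763 ± 45.6 in iPS arrays and was not called. The mesenchymal factor Twist1 fell, with differences of -2.16 ± 0.13 in iPS and -2.47 ± 0.13 in R1 cells, as did Twist2 (-2.46 ± 0.06 and -2.69 ± 0.06). The muscle factors Myod1 and Myog fell in both, and they are themselves part of the muscle marker sums given above. Myf5 and Myf6 were not called.
Olig1, a neural lineage factor, was the 1 gene of the 99 (1.01%) called between the stem cells, against 0.461% of all genes. It was higher in iPS by 1.04 ± 0.14 (adjusted p = 0.00217 in limma). Its signal was 102, 76.1 and 89.3 in R1 and 224, 209 and 165 in iPS arrays, and its call was lost without R1 replicate 2, iPS replicate 1 or iPS replicate 2. Its relative Olig2 was higher by 0.98. Against MEF, the iPS call of Olig1 was lost without MEF replicate 2 or iPS replicate 1, and that of Olig2 without iPS replicate 2.

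**Figure D4:**
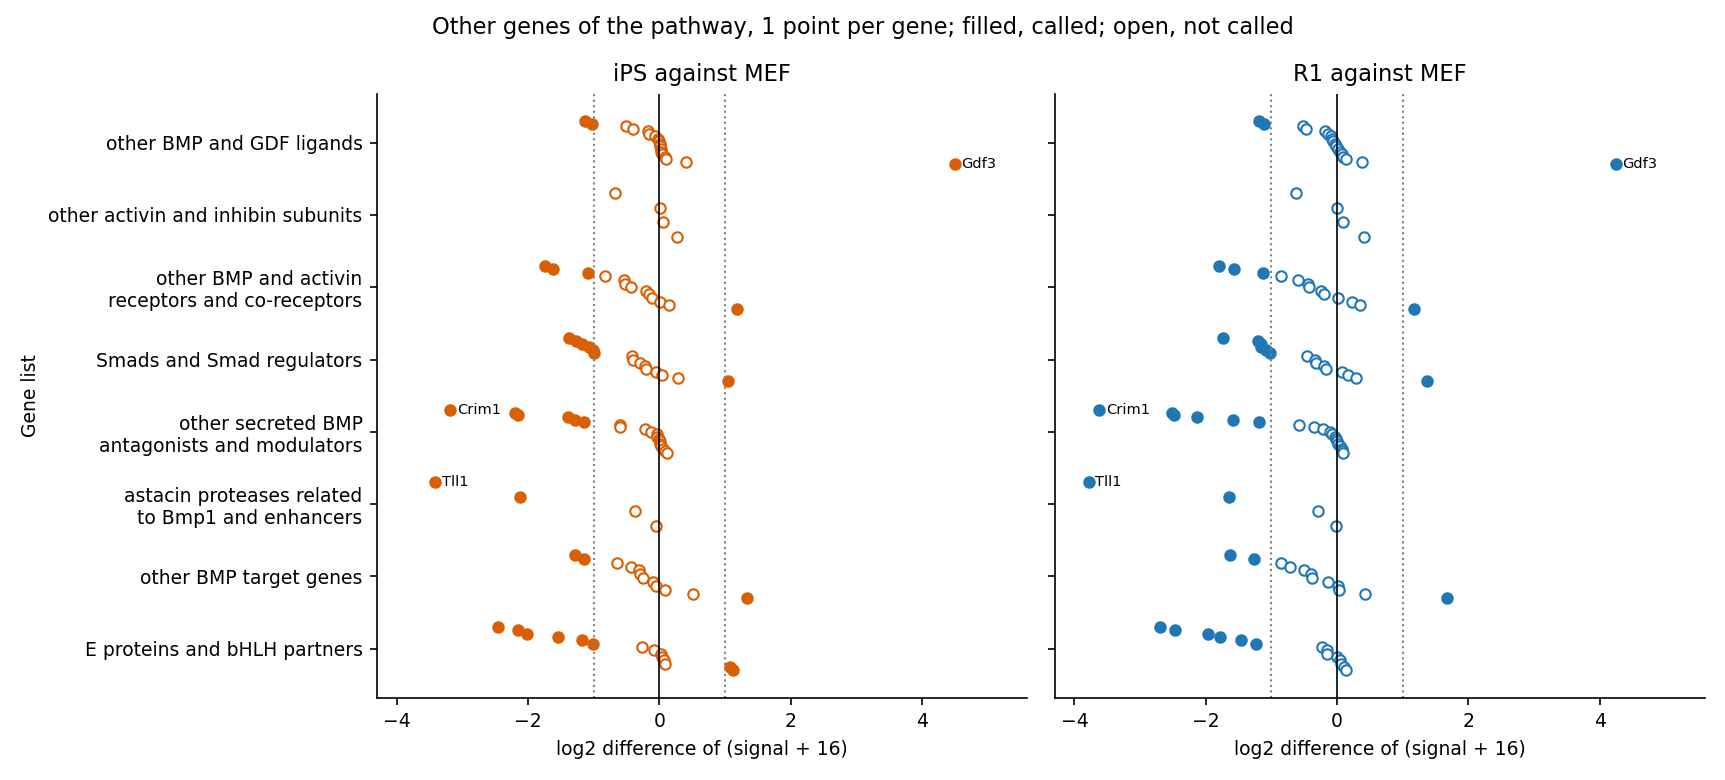
log2 difference from MEF (horizontal axis) of 99 other genes of the pathway in 8 lists, for iPS cells on the left and R1 cells on the right, with 1 point per gene. Filled points were called and open points were not. Gdf3 stands alone on the right of each panel, and Crim1 and Tll1 lie farthest to the left.

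Genes with the most similar profiles were sought by Euclidean distance between mean-centred log2 signals over the 9 arrays. Bmp1 lay closest to Fstl1 (0.18), Bmpr1a to Fkbp1a (0.15), Id4 to Arfgef1 (0.16), Grem1 to Akap13 (0.22) and Id3 to Snx9 (0.24). Bmp4 lay closest to Riok1 (0.32). Fst lay closest to Nes (0.41), Id1 to Myc (0.42), Id2 to Arhgap42 (0.57) and Inhba to Timp3 (0.60). Myc shared with Id1 the order of means, at 1519.5 in MEF, 827 in R1 and 660.3 in iPS arrays. The other 9 of the 10 genes, and genes with Riken, Gm or LOC symbols, were left out of each search.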

How the data were processed

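RNA of 9 mouse samples, 3 each of MEF, R1 and iPS cells by their titles, was measured on Affymetrix whole-transcript arrays. The authors deposited a linear intensity for each probe set and array, between 4.0 and 18820.3. GCOS 1.4 appears in the submitters' processing notes, with no role given; how background was corrected and arrays were normalized is not given in the sources used here. Probe sets with exactly 1 symbol in the platform annotation (21789 of 35557) were kept, and the one with the highest mean stood for its gene (19938 genes). Signals were analysed as log2(signal + 16), which understates differences of dim genes. A single limma 3.58.1 model (R 4.3.3; lmFit, eBayes, 6 residual degrees of freedom) held the 3 group means, with Benjamini-Hochberg adjustment across the genes tested. The script was tested on simulated data. Errors are standard errors of the fit or the SD of 3 arrays, and the number of arrays limits the precision.

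The members and lists were chosen with earlier results of these data known. Named genes are the 10 members, up to 4 called genes per direction of each pathway list and comparison with MEF, genes called between iPS and R1 cells, and profile neighbours, of which the nearest is given. Bmp2, Bmp7, Inha, Inhbb, Nog, Chrd, Fstl3, Smad2, Smad4, Smad7, Smad9, Tcf3, Tcf4, Tll2, Pcolce2 and Dusp9 were named after their values were seen. So were Myf5, Myf6 and the marker genes named singly, among them Lum. Alternatives covered the pseudocount, normalization, dim genes, probe sets, genes tested, minimum difference, intensity trend, samples fitted, replicate block and each array left out. Protein sequences were not used here.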

Additional observations from a re-analysis of the deposited data

Results flagged for a closer look

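Bmpr1a and Id2 stood out because the difference between the stem cell types passed limma's adjusted threshold of 0.05 without reaching a difference of 1. Bmpr1a was higher in iPS than in R1 cells by 0.23 (adjusted p = 0.0329 over all genes), with 3 of 3 iPS arrays above all R1 arrays. Id2 was higher by 0.78 (adjusted p = 0.0307), again with 3 of 3 iPS arrays above all R1 arrays, and the iPS arrays ranged from 307 to 553. By adjusted p alone 8.52% of all genes passed, and 21.9% had separated arrays in either direction. Over 19 alternatives the adjusted p was under 0.05 in 8 for Bmpr1a and in 11 for Id2.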

How the results depend on the processing

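Of 570 recomputed differences of the 10 genes, 558 kept their direction and stayed called or not called. Of the rest, 10 became called and 2 lost their call. None changed sign, but several alternatives could change only the p of a difference and not the difference itself. These were dim genes left out, the 2 changes of probe sets, the intensity trend, only the 2 groups compared and the replicate block. Leaving out an array of the group not compared was another. By adjusted p alone, 26 of the 570 fell on the other side of 0.05, in 7 differences: 11 for Bmpr1a, 8 for Id2, 3 for Bmp1 and 1 each for Inhba, Fst and Id3 in iPS against R1, and 1 for Bmp4 in R1 against MEF (0.0404 without R1 replicate 1). Grem1 in R1 cells lost its call with a pseudocount of 64 (-0.99), and in iPS cells it gained one with a pseudocount of 1 (-1.05) and with median centring (-1.004), beside the changes with single arrays given above. Members called numbered 5 to 7 in iPS against MEF, 6 to 7 in R1 against MEF and 0 to 1 in iPS against R1 when single arrays were left out. Without a minimum difference, 9572, 9750 and 1699 genes passed in these comparisons, in place of 2524, 2691 and 92, and 2 members passed in iPS against R1. In iPS against R1, a pseudocount of 64 left 45 genes called, and testing all probe sets called 144, more features being tested. With the replicate number as a block, 2524, 2691 and 92 genes were called, as without it. Same-numbered arrays correlated in their deviations from group means by -0.08 to 0.24, over 0.1 in 4 of 9 pairs. The arrays that correlated best with their own number were 3 of 9, those of replicate 1 (0.21 to 0.24). MEF replicate 2 and R1 replicate 2 correlated with each other at 0.20, and with iPS replicate 3 at 0.20 and 0.19. The numbers were therefore not taken as pairs, and the block by number does not group those last arrays. Whether arrays of different groups shared a batch was not tested. Under the block the adjusted p of Bmpr1a in iPS against R1 was 0.0515. Among the other pathway genes, quantile normalization ended the calls of Gdf11, Smad1, Smad6, Smurf2 and Tcf4 in iPS and of Smad5 in R1 cells against MEF. A pseudocount of 64 ended those of Bmp5, Gdf11, Acvr2b, Bmpr1b, Smad1, Smad6 and Nbl1 in both, of Smurf2, Zfp423, Gata3, Tcf4, Olig1 and Olig2 in iPS, of Smad5 in R1 cells, and of Olig1 between iPS and R1 cells. Signal over background is unknown without detection calls, which limits what can be said of dim genes.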

Other observations

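Some pathway genes outside the 10 differed between iPS and R1 cells by limma's adjusted p without reaching a difference of 1. By adjusted p alone, 8.52% of all genes passed in this comparison. The genes named here were picked after their values were seen and are not all that passed. Gata2, for example, was higher in iPS cells by 0.41 ± 0.08 (adjusted p = 0.0119). Tcf12, an E protein, was higher in iPS cells by 0.59 ± 0.05 (adjusted p = 0.000276) and Gata3 by 0.49 ± 0.05 (adjusted p = 0.000511). Pcolce was lower in iPS cells, with a difference of -0.49 ± 0.10 (adjusted p = 0.0158).

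Among the MEF arrays, replicate 2 was the highest for 7 of the 10 genes, against 37.4% of all genes, and replicate 1 was the highest for none. Among the R1 arrays, replicate 3 was the lowest for 8 of the 10 genes, against 29.0% of all genes.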
